A study of Mus musculus with 66 samples.

Results

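The 77 genes described here are the splicing factors and heterogeneous nuclear ribonucleoproteins (hnRNPs) of mouse small intestinal organoids. They were all entries of the deposited RNA table whose gene symbol begins with Srsf, Sf3, Snrp, Hnrnp, Prpf, U2af or Lsm. The 77 genes held 84 of the 9481 listed transcripts, of 8978 gene symbols in all, and all 84 could be tested. By name, they were 7 Sm ring proteins, 4 proteins of the U1 or U2 particle alone, 8 Lsm ring proteins, 4 other Lsm proteins, 9 SF3a and SF3b subunits, 2 U2AF subunits, 13 PRP factors, 10 SR proteins and 20 hnRNPs.

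The organoids were compared in 3 media, with 4 RNA-seq libraries each. ENR, the conventional medium, holds epidermal growth factor, Noggin and R-Spondin-1 and gives a mixture of cell types. CV is ENR with 3 μM CHIR99021 and 1 mM valproic acid and was meant by the study to enrich stem cells. EN is ENR without R-Spondin-1 and was meant to deplete stem cells and enrich enterocytes. According to the study's methods the organoids carried an Lgr5 GFPDTR/+ allele and the cultures were kept for different times, so medium and time in culture cannot be told apart. Valproic acid also inhibits histone deacetylases, and it was present in CV alone. Nothing in the labels says that the libraries of a culture came from separate animals, so the p-values measure the spread between these samples, which may be technical.

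Most genes of animals are interrupted by introns, which the spliceosome removes in a series of rearrangements of small nuclear ribonucleoprotein particles (snRNPs). Each of the U1, U2, U4 and U5 snRNAs carries a ring of Sm proteins, U6 carries a ring of Lsm proteins, SF3a, SF3b and U2AF define the branch point and the 3′ splice site, and the PRP factors drive the later steps. SR proteins mostly favour, and hnRNPs often oppose, the use of nearby splice sites, although both families have further roles in the life of an mRNA. In the intestine the stem cells and dividing progenitors lie in the crypt, and the differentiated cells on the villus.

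Transcripts of the splicing factors took a smaller share of the counted RNA in EN than in the other cultures. All counts, copies and transcripts here and below are those of the listed transcripts, which were limited to transcripts with measured proteins. The 84 transcripts held 1.06% to 1.08% of all expected counts in the CV libraries, 1.23% to 1.25% in the ENR libraries and 0.505% to 0.551% in the EN libraries. The 3 cultures did not overlap. On the deposited mRNA copy numbers per cell, the summed values of the members lay between 5248 and 7225 in CV libraries, 3905 and 10376 in ENR libraries and 4968 and 7373 in EN libraries, and all 3 ranges overlapped. The copies of all transcripts together were higher in EN than in CV without overlap, between 645250 and 870829 in CV and 1554680 and 2546650 in EN, and lay between 498750 and 1577570 in ENR libraries. The share held by the splicing factors was therefore lower in EN on both scales (0.753% to 0.869% of copies in CV, 0.290% to 0.338% in EN), while their summed copies per cell were not separated. In bulk RNA, fewer cells of a type and less RNA per cell cannot be told apart.

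**Figure D1:**
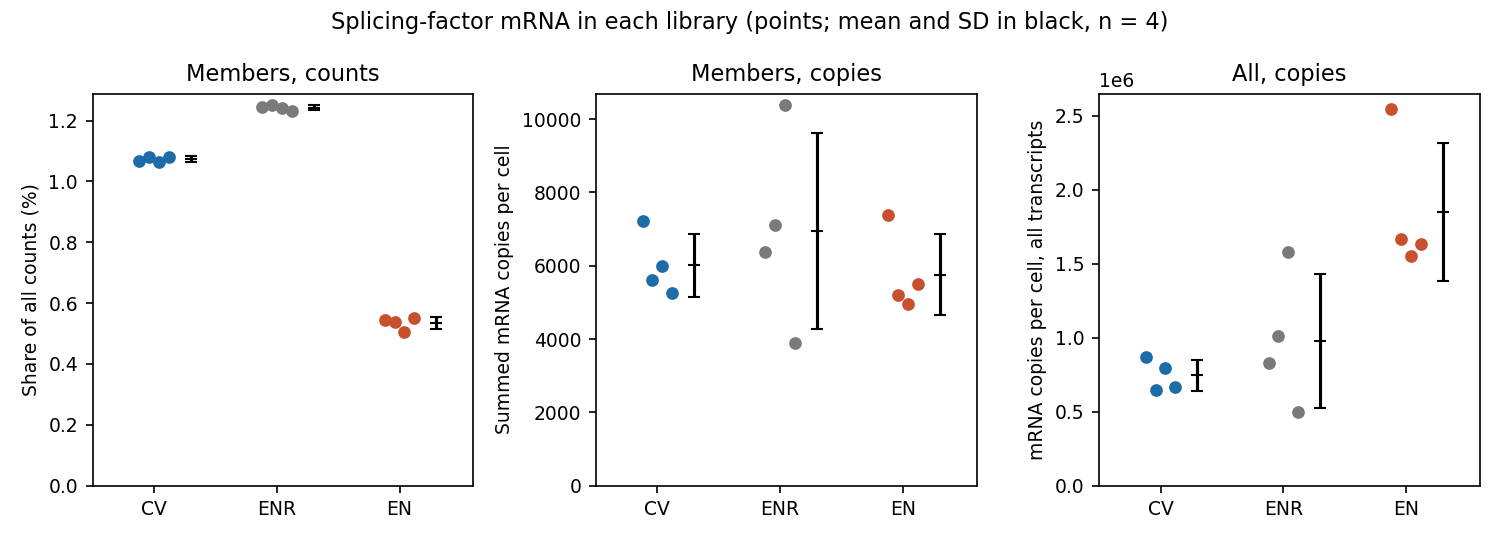
Percent of all expected counts held by the 84 transcripts, their summed deposited mRNA copies per cell, and the copies of all transcripts, in each of 4 libraries per culture (points), with the mean and SD beside them. In the first panel EN lies from 0.505% to 0.551%, below the lowest CV library at 1.06%, whereas in the second panel the cultures overlap.

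In edgeR's quasi-likelihood test, with TMM scaling and Benjamini-Hochberg adjustment over 9288 transcripts, 62 of the 84 transcripts were lower and 6 were higher in EN than in CV at an adjusted p under 0.01, which are 73.8% and 7.14%. Of all transcripts tested, 41.2% were called lower and 35.2% higher. A fall of 2-fold or more was called for 22 members, against 20.1% of all transcripts, and no member was called higher by 2-fold, against 15.2%. Between CV and EN the members had a median log2 fold change of -0.65, and all transcripts tested had one of -0.076. With the counts scaled to spike-in RNA, which was added to a fixed mass of total RNA, 68 members were lower and 0 higher, against 46.2% and 15.9% of all. On the copy numbers the direction of the median was turned, at 0.13, and 11 members were lower and 13 higher, or 13.1% and 15.5% against 13.6% and 47.0% of all. The median of all transcripts on that scale was 0.69, so that the members lay below it by about as much as on the counts. All falls and rises below are on the TMM-scaled counts unless copies are named, and values per library are counts relative to the TMM-scaled library size (CPM).

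**Figure D2:**
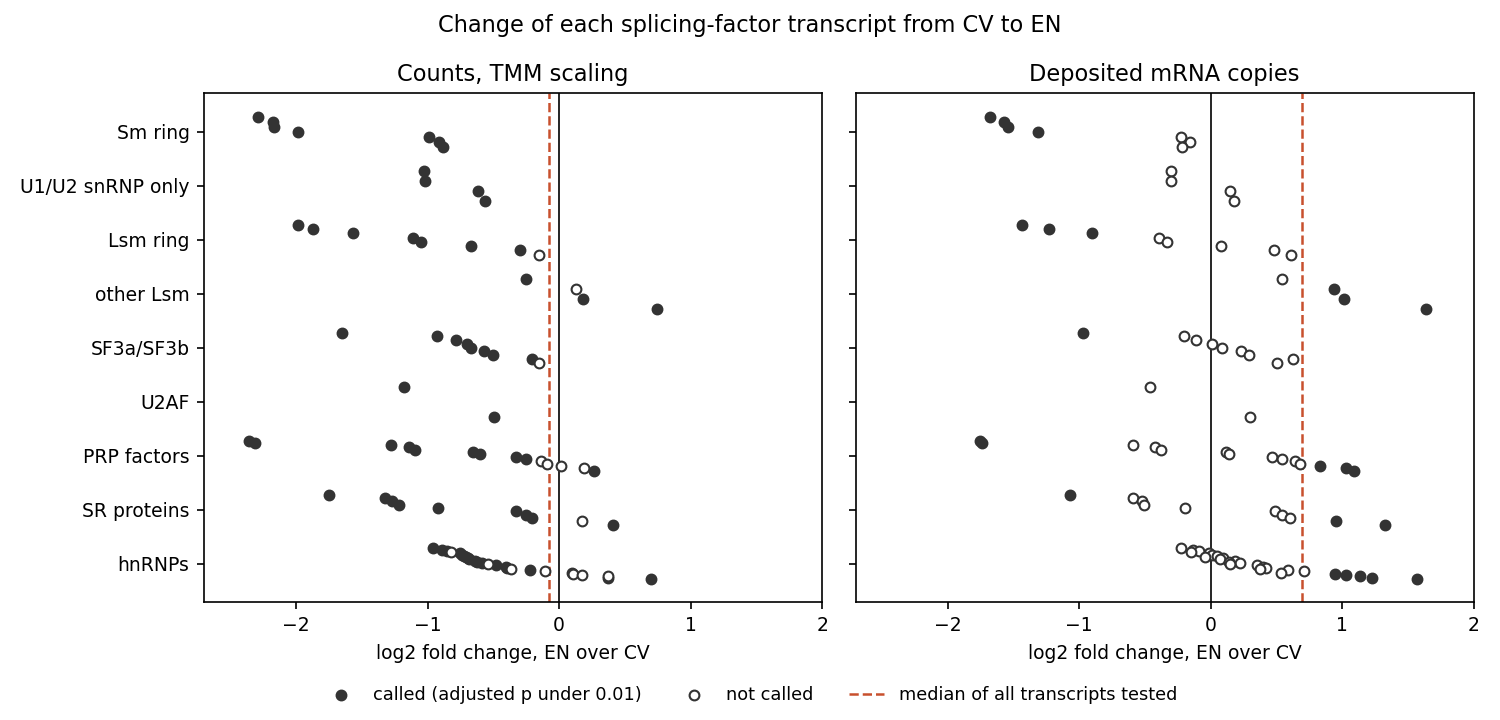
Log2 fold change from CV to EN of each of the 84 transcripts by role, on TMM-scaled counts (left) and on deposited mRNA copies (right), where filled points passed an adjusted p under 0.01 and the dashed line is the median of all transcripts tested (-0.076 and 0.69). The Sm ring holds 4 transcripts that were called lower on both scales, while most hnRNPs lie between -1 and 0 on the left and around 0 on the right.

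The Sm ring showed the largest median fall of any role, -1.98 over its 7 genes (-1.31 on copies), and all 7 were called lower in EN than in CV. Sm proteins form the ring of 7 on which an snRNP is built. Snrpf, which encodes Sm protein F, had 45.6, 41, 39.6 and 36.9 CPM in the CV libraries, 45.6, 43.9, 39.8 and 48.7 in ENR and 8.44, 11.1, 6.96 and 7.20 in EN. The EN libraries lay far below the others, which overlapped, with a log2 fold change from CV to EN of -2.29 (SE 0.12, adjusted p = 7.12e-11). Snrpd1, for Sm protein D1, had 63.2, 65.5, 65.2 and 56.9 CPM in CV, 75, 84.4, 75.9 and 81.5 in ENR and 13.1, 13.9, 11.2 and 16.8 in EN. ENR was above CV in each library and EN below both, a change of -2.17 (SE 0.095, adjusted p = 6.51e-12) from CV. Snrpd2, for Sm protein D2, was the most abundant member of the ring per length, at mean TPMs of 873, 642 and 173 in CV, ENR and EN. Its CPM was 194, 175, 166 and 182 in CV, 156, 140.2, 146 and 143 in ENR and 50.8, 47.7, 40.8 and 41.5 in EN. Here CV lay highest, with -1.98 (SE 0.070, adjusted p = 5.52e-13) between EN and CV.

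The 7 genes of the ring did not fall alike. Snrpf, Snrpd1, Snrpg and Snrpd2 changed by -2.29, -2.17, -2.17 and -1.98 on the log2 scale, whereas Snrpe, Snrpb and Snrpd3 changed by -0.99, -0.92 and -0.89. The first 4 were also called lower on the copy numbers, at -1.68, -1.57, -1.54 and -1.31, and the other 3 were not, at -0.23, -0.16 and -0.22. The smallest of these changes, in Snrpd3, rests on 24 to 53 counts per EN library.

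The 4 proteins that belong to only 1 snRNP were all called lower in EN than in CV, with a median log2 fold change of -0.82. Snrpb2 and Snrpa1, which bind each other on the U2 snRNP, changed nearly equally. Snrpb2 had 46.1, 43.2, 48 and 41.4 CPM in CV, 49.5, 50.7, 39.6 and 45.9 in ENR and 21.7, 21.4, 25.2 and 19.6 in EN, a change of -1.03 (SE 0.092, adjusted p = 4.75e-08). Snrpa1 changed by -1.02 (SE 0.085, adjusted p = 1.91e-08), from 44.4 to 50.5 CPM in CV to 18.9 to 25.9 in EN. EN lay apart from both other cultures for each of them, and CV and ENR overlapped for Snrpb2. The U1 proteins Snrpc, which steadies the pairing of U1 with the 5′ splice site, and Snrpa, which binds a loop of U1 snRNA, changed by -0.62 and -0.57. On copies none of the 4 was called, at -0.30, -0.31, 0.14 and 0.18 in the order named.

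Among the Lsm ring genes, 7 of 8 were called lower in EN than in CV, with a median of -1.08 (-0.37 on copies). Lsm2 to Lsm7 are shared by a nuclear ring on U6 snRNA, closed by Lsm8, and a cytoplasmic ring that acts in mRNA decapping, closed by Lsm1. Lsm5 had 21.6, 21.9, 21.1 and 24.8 CPM in CV, 26.8, 27.7, 27.2 and 25.8 in ENR and 5.76, 7.71, 5.17 and 6.05 in EN, a change of -1.87 (SE 0.11, adjusted p = 2.38e-10) from CV to EN. Lsm7, the most abundant of them per length at mean TPMs of 269, 295 and 71.3 in CV, ENR and EN, had 51.3, 53.7, 48.9 and 52.7 CPM in CV, 62.1, 61.5, 63.5 and 63.8 in ENR and 17.7, 14.6, 19.1 and 18 in EN. In both genes every EN library was below every CV library and every CV library below every ENR library, and Lsm7 changed by -1.56 (SE 0.069, adjusted p = 7.22e-12) from CV to EN. Lsm2 changed most, by -1.99 (SE 0.22, adjusted p = 6.57e-07), on low counts of 7 to 16 per EN library. Lsm2, Lsm5 and Lsm7 were also called lower on copies, at -1.44, -1.23 and -0.90.

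The genes that tell the 2 Lsm rings apart differed. Lsm8 of the nuclear ring had 38, 35.9, 35.7 and 34 CPM in CV, 42.9, 50.1, 44.8 and 50 in ENR and 19.4, 15.8, 16.9 and 16.6 in EN. Lsm1 of the cytoplasmic ring had 43, 45.1, 41.9 and 48.1 CPM in CV, 29.2, 26, 26 and 27.7 in ENR and 33.1, 33.6, 38.5 and 39.4 in EN. Lsm8 was thus lowest in EN and Lsm1 lowest in ENR, with log2 fold changes from CV to EN of -1.05 and -0.30 and from ENR to EN of -1.44 and 0.41. The log2 ratio of Lsm8 to Lsm1 within a library, which needs no scaling between libraries, lay between -0.50 and -0.18 in CV libraries, 0.56 and 0.94 in ENR libraries and -1.25 and -0.77 in EN libraries. This pair was chosen after its values were seen, and the ratio is given as a description.

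**Figure D3:**
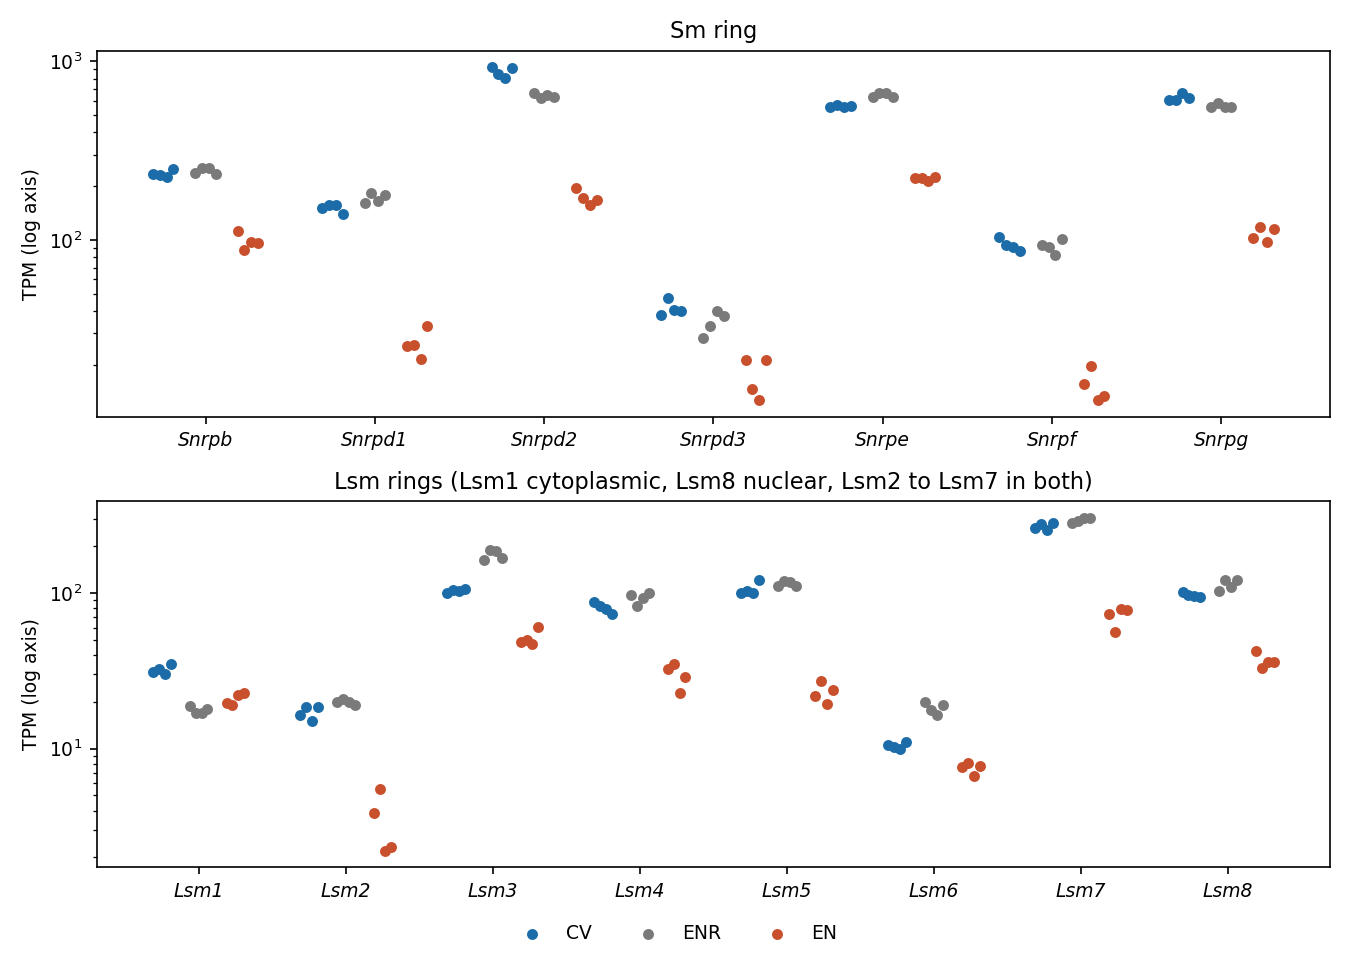
TPM on a log axis of the 7 Sm ring genes (top) and the 8 Lsm ring genes (bottom) in each library of CV, ENR and EN. Snrpf, Snrpd1, Snrpg and Snrpd2 fall further in EN than Snrpe, Snrpb and Snrpd3, and Lsm1 is the gene of its panel that lies lowest in ENR.

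Of the 4 Lsm proteins outside these rings, 2 were called higher, 1 lower and 1 in neither direction. Lsm14b, of the Lsm14 family found in cytoplasmic mRNA granules called P-bodies, had 42, 45.8, 50.6 and 51.9 CPM in CV, 56.3, 50.1, 53.1 and 51.8 in ENR and 79.5, 84.8, 75.1 and 80.5 in EN. Its EN libraries lay above all others, and it was called higher on the counts, by 0.75 (SE 0.067, adjusted p = 4.69e-08) from CV, and on the copies, by 1.64. Its paralog Lsm14a was called higher on the counts by 0.18 but was lower with spike-in scaling (-0.23) and on TPM (-0.13). Lsm12 was called lower, at -0.25, and Lsm10, which replaces an Sm protein in the U7 snRNP of histone mRNA processing, had a change of 0.13 (SE 0.14, adjusted p = 0.417).

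Of the 9 SF3a and SF3b subunits, which sit on the U2 snRNP at the branch point, 8 were called lower in EN than in CV, with a median of -0.67, which was 0.089 on copies. Sf3b5, a small subunit of SF3b, stood apart with 76, 74.5, 75.9 and 89.2 CPM in CV, 46.7, 47, 46.9 and 45.4 in ENR and 28.1, 23.8, 24.4 and 23.8 in EN. Its level stepped down from CV to ENR to EN with no overlap, and EN differed from CV by -1.65 (SE 0.073, adjusted p = 7.6e-12), or -0.97 on copies. Sf3b3, a large scaffold subunit, was instead highest in ENR, with 110.0 to 120.0 CPM in CV, 160.3 to 171 in ENR and 52 to 66.1 in EN, and changed by -0.93 (SE 0.062, adjusted p = 1.21e-09) from CV to EN. Sf3b1, which holds the branch point helix, had the smallest called change, -0.21. Sf3b6, which touches the branch point adenosine, was the most abundant subunit per length in the mean of all libraries, at 189.7, 137 and 102 TPM, and changed by -0.57, while Sf3a2 gave -0.15 (SE 0.23, adjusted p = 0.55). Both U2AF subunits were called lower. U2af1, the subunit that reads the AG of the 3′ splice site, had 65.8, 63.5, 67.6 and 67.1 CPM in CV, 80.7, 73.8, 78.2 and 71.2 in ENR and 30.7, 32.1, 24.1 and 29.5 in EN, with EN far below the rest, a change of -1.18 (SE 0.074, adjusted p = 5.42e-10). Its partner U2af2, which binds the pyrimidine tract, changed by -0.50 (SE 0.053, adjusted p = 4.09e-07).

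Among 14 transcripts of 13 PRP factors, 9 were called lower and 1 higher in EN than in CV, with a median of -0.46, which was 0.30 on copies. Prpf31, a U4/U6 snRNP protein that joins it to U5 in the tri-snRNP, had the largest fall of all members. It had 127, 131, 125 and 130.4 CPM in CV, 83.5, 94.6, 85.2 and 88 in ENR and 23.6, 27.8, 21 and 28.1 in EN. Without overlap, the cultures stepped down in that order, by -2.36 (SE 0.073, adjusted p = 1.02e-13) from CV to EN and by -1.75 on copies. Prpf40b, a U1-associated factor of low level (12, 3.85 and 1.90 TPM), had 25.1, 24.6, 20.4 and 28.3 CPM in CV, 9.60, 7.36, 10.3 and 7.93 in ENR and 5.36, 3.43, 5.17 and 5.47 in EN. It too was highest in CV, with -2.31 (SE 0.16, adjusted p = 1.38e-09) between EN and CV. Prpf8, the protein at the centre of the spliceosome, changed by -0.33, and Prpf19, a ubiquitin ligase of the active spliceosome, by -1.14. Prpf39, another U1-associated factor, was called higher by 0.26 (SE 0.083, adjusted p = 0.00851), with 25.8 to 34.4 CPM in CV and 34.4 to 39 in EN, close but without overlap, and lower with spike-in scaling (-0.15) and on TPM (-0.040).

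The 10 SR proteins split. From CV to EN 8 were called lower and 1 higher, with a median of -0.63 (0.15 on copies) and a span from -1.75 to 0.41. Srsf7, an SR protein with a zinc knuckle that also takes part in mRNA export, had 119, 123, 118 and 123 CPM in CV, 169.9, 180.1, 179 and 179 in ENR and 31.8, 42.6, 35.5 and 35.6 in EN. ENR lay highest and EN lowest, with no overlap, and EN differed from CV by -1.75 (SE 0.063, adjusted p = 6.41e-13), or -1.07 on copies. Srsf1, the founding SR protein, had 564, 583, 587 and 552 CPM in CV, 714, 733, 727 and 724 in ENR and 209, 225, 242 and 239 in EN. Again ENR lay highest and EN lowest, with -1.32 (SE 0.043, adjusted p = 2.03e-13) between EN and CV. Srsf3 followed closely, at -1.27, and Srsf9 and Srsf10 changed by -1.22 and -0.92, while Srsf2, Srsf11 and Srsf6 moved by -0.33, -0.25 and -0.21.

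Srsf5 was the SR protein called higher in EN than in CV, and the most abundant of them per length (329, 414 and 350.3 TPM). It had 319, 311, 299.6 and 308 CPM in CV, 444, 423, 440.3 and 427 in ENR and 425, 414, 366 and 439 in EN. EN and ENR overlapped and both lay above CV, with 0.41 (SE 0.048, adjusted p = 1.04e-06) between EN and CV and -0.076 between EN and ENR. On copies it was higher by 1.33, and with spike-in scaling the difference was -0.00034.

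The 26 transcripts of 20 hnRNPs had a median of -0.56 (0.20 on copies) and no change of 2-fold from CV to EN, yet 16 were called lower and 2 higher. Hnrnpa1, which opposes the use of splice sites in many exons, had 127, 122, 124 and 119 CPM in CV, 215, 206, 191 and 209.8 in ENR and 67.9, 72.8, 56 and 68.5 in EN. With ENR highest, no culture overlapped another, and EN differed from CV by -0.89 (SE 0.064, adjusted p = 3.23e-09). Hnrnpf, which binds runs of G, was the most abundant hnRNP per length, at 573, 556 and 295 TPM. It had 817, 852, 865 and 828 CPM in CV, 888, 922, 906 and 922 in ENR and 522, 566, 515 and 555 in EN, and changed by -0.64 (SE 0.036, adjusted p = 1.75e-10). Hnrnpul2 and Hnrnpul1, members of the hnRNP U-like group that have roles in DNA repair, were the 2 called higher. Hnrnpul2 had 72.9, 67.9, 74.1 and 80.7 CPM in CV, 103, 103, 96.9 and 103 in ENR and 132, 127, 97.4 and 124 in EN, with CV below both and a change of 0.70 (SE 0.080, adjusted p = 7.53e-07). Hnrnpul1 changed by 0.37 from CV to EN and by -0.26 from ENR to EN, and with spike-in scaling its difference from CV was -0.049.

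For 7 genes the table lists 2 transcripts each, and in none were the 2 called in opposite directions. The index of transcripts was limited to those whose proteins had been measured, so reads of other isoforms or of near-identical copies may have been counted to a listed transcript, and the division between isoforms is an estimate of kallisto. For Hnrnpc, which binds runs of U, NM_016884.3 had 90.8, 93.3, 96.6 and 122 CPM in CV and 49.7, 66.6, 39.8 and 52.4 in EN, a change of -0.96 (SE 0.12, adjusted p = 2.62e-06). Its other transcript NM_001170982.1 had 89.3, 111, 106 and 101 CPM in CV and 82.4, 83.7, 87.1 and 96.2 in EN, a change of -0.22 (SE 0.067, adjusted p = 0.00694). NM_016884.3 thereby made up 49.1%, 39.3% and 36.8% of the TPM of Hnrnpc in CV, ENR and EN. For Hnrnpk the 2 transcripts kept their proportion, with NM_001301343.1 at 68.6%, 68.5% and 67.3%. The split of Hnrnpd is unsafe, since NM_001077267.2 ranged from 0 to 98 counts among the CV libraries alone.

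As a pool, the splicing-factor mRNA changed in its make-up, a measure that needs no scaling between libraries. The Sm ring held 29.1% ± 0.295 (SD, n = 4) of the TPM of all members in CV, 26.1% ± 0.157 in ENR and 16.6% ± 0.247 in EN. In the same order, hnRNPs held 28.2% ± 0.353, 30.8% ± 0.109 and 35.2% ± 0.590, and the SR proteins 13.4% ± 0.129, 15.1% ± 0.135 and 17.8% ± 0.131. For these 3 roles the 3 cultures did not overlap. The Lsm ring held 8.08% ± 0.183, 9.26% ± 0.216 and 6.15% ± 0.222, again without overlap. The SF3 subunits held 8.89% ± 0.141 in CV, 7.22% ± 0.0518 in ENR and 9.51% ± 0.423 in EN, lowest in ENR and without overlap. The U2AF subunits held 2.74% ± 0.0737, 2.96% ± 0.121 and 2.68% ± 0.173, with every ENR library above the others and CV and EN overlapping.

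**Figure D4:**
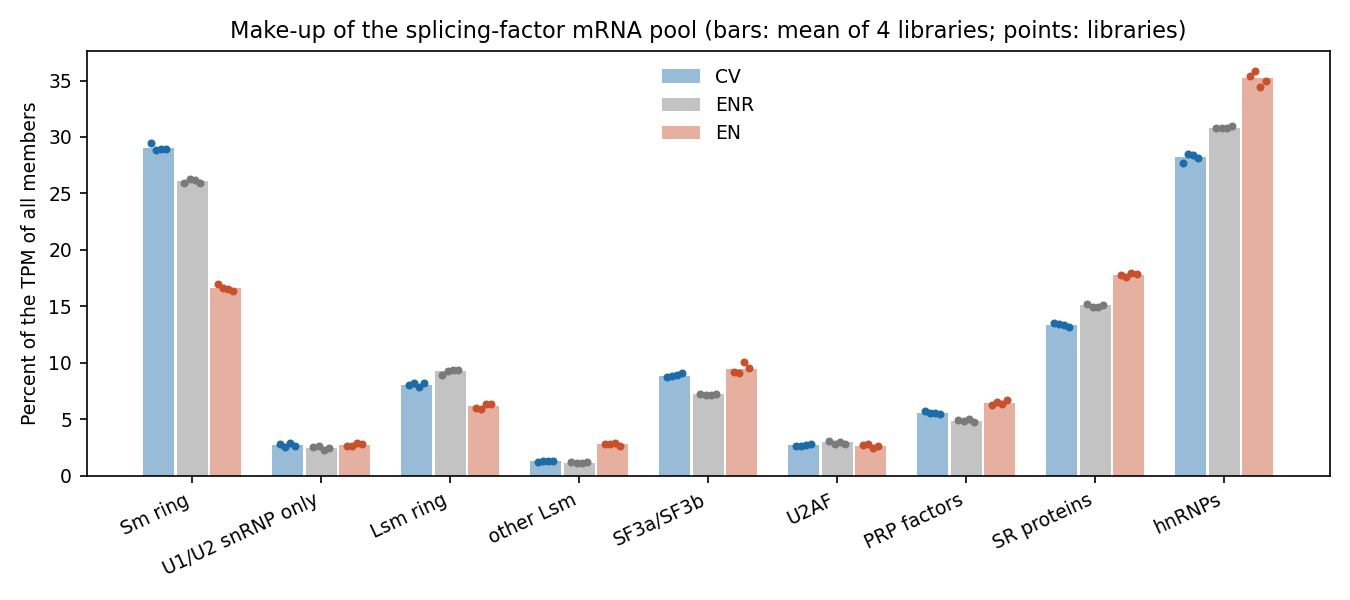
Percent of the summed TPM of the 84 transcripts held by each role, as the mean of 4 libraries per culture (bars) with the libraries as points. The Sm ring falls from 29.1% in CV to 16.6% in EN, while the hnRNPs go from 28.2% to 35.2% and the SR proteins from 13.4% to 17.8%.

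Against ENR, the mixed culture, 72 of 84 transcripts were called lower and 3 higher in EN, or 85.7% and 3.57%, when 37.2% and 35.5% of all transcripts were called. A fall of 2-fold or more was called for 35 and a rise of that size for 0, against 17.0% and 13.1% of all, and with spike-in scaling 78 were lower and 0 higher, against 46.0% and 11.8%. In CV, 40 were called lower than in ENR and 9 higher, or 47.6% and 10.7% against 29.8% and 30.2% of all, and 1 in each direction by 2-fold or more, against 6.17% and 6.74%. These 2 comparisons share the ENR libraries. The split of CV against ENR depends on the scaling, with 20 lower and 3 higher under spike-in scaling (17.2% and 11.2% of all) and 2 lower and 4 higher on copies (5.18% and 15.5% of all). The copies of ENR vary most between libraries. On copies, EN against ENR gave 13 lower and 11 higher, against 8.72% and 59.2% of all.

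In all, 59 member transcripts were called lower in EN than in both CV and ENR. In 37, both EN and CV were called lower than ENR, and in 28 of these EN was also called lower than CV. Outside these 37, 24 were lowest in EN with no call between CV and ENR, and 7 were highest in CV and lowest in EN. The share of all transcripts with each pattern was not computed. Whether a pattern is more common among the members was therefore not tested. Hnrnph1, which like Hnrnpf binds G runs, had 62.5, 65.9, 65.7 and 68.7 CPM in CV, 145, 135, 135 and 129.9 in ENR and 70.8, 72.4, 68 and 71.7 in EN. ENR stood well above both others, with -0.95 (SE 0.046, adjusted p = 2.93e-11) for EN and -1.05 (SE 0.045, adjusted p = 3.05e-11) for CV, and CV and EN overlapped. Lsm6 had 24.3, 23.8, 23.2 and 25.1 CPM in CV, 51.5, 45.5, 42.4 and 49.1 in ENR and 21.6, 23.6, 19.3 and 22.3 in EN. It differed from ENR by -1.12 in EN and -0.97 in CV, and CV and EN overlapped. Lsm3 differed by -1.60 and -0.93, Hnrnpa1 by -1.63 and -0.74, the minor transcript NM_001277121.1 of Hnrnpr by -1.45 and -0.74, and Hnrnpc NM_001170982.1 by -0.86 and -0.64. The 9 called higher in CV than in ENR were Prpf40b (1.48), Sf3b5 (0.76), Lsm1 (0.71), Srsf9 (0.64), Prpf31 (0.55), Hnrnph2 (0.36), Sf3b6 (0.32), Snrpd2 (0.29) and Lsm12 (0.24).

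Other genes of the splicing pathway were listed beside the members, and 111 of 120 gene symbols were found, with 126 transcripts. From CV to EN, 67 were called lower and 15 higher, or 53.2% and 11.9%, with a median of -0.42, which was 0.29 on copies. The largest falls were in the machinery that loads Sm rings onto snRNA. Gemin6, Gemin5 and Gemin4, subunits of the SMN complex, changed by -3.09 (SE 0.15, adjusted p = 3.15e-11), -2.42 and -2.24, and none overlapped between CV and EN. Prmt5, which methylates Sm proteins before assembly, changed by -2.10 in its main transcript. Of the 13 transcripts of snRNP assembly 9 were called lower and 1 higher, and 6 were called lower and 1 higher on copies. The largest rises were in Clk1, a kinase of SR proteins, at 1.19 (SE 0.046, adjusted p = 1.49e-12), in Srrm2, a scaffold of nuclear speckles, at 1.03, and in Syf2, a factor of the active spliceosome, at 1.03. Epithelial regulators were close to 0 from CV to EN, with 0.038 (SE 0.048, adjusted p = 0.477) for Esrp1 and 0.052 (SE 0.068, adjusted p = 0.481) for Esrp2, but at -0.27 and -0.26 on log2(TPM + 1). Ptbp1, a repressor that binds pyrimidine tracts, changed by -0.43, and Srpk1, another SR protein kinase, had 0.017 (SE 0.045, adjusted p = 0.736).

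Markers of cell types differed between the same cultures. All 13 transcripts of 11 proliferation genes were called lower in EN than in CV, and their summed TPM ran over 1092 to 1119, 1378 to 1432 and 179 to 194 in CV, ENR and EN. All 6 stem cell markers were called lower (289 to 324, 923 to 1008 and 17.4 to 20 TPM). Against ENR, CV had 4 stem cell markers lower and 1, Cd44, higher, with a median log2 difference of -0.37 (1 lower and 1 higher on copies, median -0.19), and 11 of the 13 proliferation transcripts lower (4 on copies). The 6 stem cell markers ran from -6.78 to 2.02 in CV against ENR, with 1 lower and 1 higher by 2-fold or more. Their summed TPM therefore does not stand for each marker. An excess of these stem cell markers as a set in CV was thus seen over EN and not over ENR. From images of an Lgr5 GFP reporter, the study described Lgr5 stem cells as dominating in CV. It also reported stem cell markers as enriched in CV and depleted in EN, in mRNA and in protein. From CV to EN, all 9 enterocyte markers were called higher (19985 to 21091, 10775 to 12463 and 59099 to 66255 TPM). Of the goblet markers 5 of 6 transcripts were called higher (1671 to 1792, 2807 to 3019.9 and 6201 to 7418 TPM), and so were all 3 found for enteroendocrine cells (33.5 to 54.6, 507 to 526 and 1333 to 1601 TPM) and all 3 for tuft cells (0.568 to 1.60, 11.9 to 12.5 and 20.8 to 28.2 TPM). Of 4 Paneth markers 2 were called higher and 2 lower (5797 to 6512, 14639 to 16062 and 5174 to 5619.9 TPM). Of 5 markers of cells outside the epithelium, 2 were called higher and 1 lower, and their sum ran over 4.04 to 5.27, 6.45 to 7.76 and 16.4 to 20.7 TPM in CV, ENR and EN. Col1a2 had at most 1 count in any library, Des 0 in every ENR library and Ptprc at most 23 counts. The part of these cell types in the change of the splicing factors was not tested.

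At the promoters, ATAC-seq (4 libraries per culture) measured open chromatin, and ChIPmentation (3 per culture) measured H3K27ac and H3K4me3, marks of active promoters, and H3K27me3, a mark of repression. All 77 genes had a region of the deposited peak union within 500 bp of an annotated start, 91 regions in mm9, of which 27 also lay at the start of another gene. From CV to EN, ATAC was called higher at 17 and lower at 10 of the 91 regions by limma at an adjusted p under 0.05, or 18.7% and 11%, against 19.1% and 15.5% of all promoter regions. H3K27ac was higher at 28 and lower at 1, or 30.8% and 1.10% against 16.9% and 3.73%, with a median log2 change of 0.56 in member regions and 0.19 in all promoter regions. H3K4me3 was higher at 12 and lower at 0, or 13.2% and 0, against 4.44% and 5.61%. H3K27me3 was called at none in limma, against 0.281% higher and 0.0639% lower, and 2 regions reached an unadjusted p under 0.05, a count that was 0 without CV replicate 2 and 8 without EN replicate 1. Its scores were low, with medians over the member regions of 6.33 in CV, 4 in ENR and 7 in EN. Of 200 simulated 4-fold changes the fit found 22 for H3K27me3, 196 for ATAC, 90 for H3K27ac and 117 for H3K4me3. The lack of H3K27me3 calls therefore does not show a lack of change. The summed scores were themselves higher in EN than in CV without overlap for ATAC (1993594 to 2109261 against 1752385 to 1840402), H3K27ac (1622103 to 1760511 against 1345873 to 1406651) and H3K4me3 (984840 to 1100967 against 817265 to 940440), and their part in these counts was not tested. With quantile normalization ATAC was higher at 3 and lower at 21, against 9.95% and 24.3% of all promoter regions. H3K27ac was then higher at 11 and lower at 5, against 5.70% and 5.97%, and H3K4me3 higher at 2 and lower at 2, against 2.08% and 7.36%, so the balance of directions depends on the scaling. With a spread that did not follow the level, regions higher in EN numbered 4 for ATAC, 1 for H3K27ac and 2 for H3K4me3, against 12.8%, 0.844% and 1.75% of all promoter regions. Leaving out EN replicate 2 or EN replicate 4 gave 18 regions higher in H3K27ac, against 1590 and 1443 of all 15640 promoter regions. Leaving out CV replicate 3, CV replicate 4 or EN replicate 2 gave 4 in H3K4me3, against 372, 358 and 291 of 15468.

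Promoters of some genes with large falls in RNA differed from one another. Lsm7 and Lsm5 were named for their chromatin changes. Other genes whose RNA fell further than that of Lsm7, such as Prpf40b and Snrpd1, are not described here. The region of Lsm7, at chr10:80316823-80318797 and shared with the start of 3110056O03Rik, had ATAC scores of 32, 35, 43 and 51 in CV, 29, 22, 21 and 27 in ENR and 16, 23, 21 and 15 in EN. EN lay below CV in every library, and the change of -1.06 (SE 0.19, adjusted p = 0.000295) was the largest called ATAC fall of the 91. The region of Lsm5, at chr6:56653714-56654862, had H3K27ac scores of 56, 41 and 31 in CV, 37, 36 and 41 in ENR and 2, 17 and 14 in EN. It was the region called lower in H3K27ac, at -2.19 (SE 0.52, adjusted p = 0.00633), and it was not called without EN replicate 2 or with a spread that did not follow the level. Its ATAC change was -0.72 (adjusted p = 0.0107). At Snrpf, Snrpg and Prpf31, the last shared with the start of Tfpt, no change was called from CV to EN, with ATAC changes of -0.30, -0.096 and -0.14 and H3K27ac changes of -0.60, 0.072 and 0.71. Snrpd2, whose region also holds the start of Qpctl, had an ATAC change of 0.41 (adjusted p = 0.00351), a rise, and an H3K27ac change of 0.042.

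Gains were found at promoters of both rising and falling genes. Snrpb, lower in RNA, had the largest called ATAC rise, at chr2:130003763-130005693, with scores of 55, 32, 34 and 32 in CV, 37, 51, 53 and 49 in ENR and 93, 56, 64 and 82 in EN, 0.94 (SE 0.19, adjusted p = 0.000885). Hnrnpl had the largest called H3K27ac rise, in 1 of its regions, at chr7:29595322-29596024, with scores of 3, 14 and 9 in CV, 28, 29 and 16 in ENR and 65, 48 and 90 in EN, 2.98 (SE 0.49, adjusted p = 0.000106). CV and EN do not overlap at either. The largest called H3K4me3 rise, 0.91 (SE 0.18, adjusted p = 0.0316), was at chr2:181326553-181327885, shared by Prpf6 and Znf512b, with 51, 46 and 40 in CV and 109, 90 and 66 in EN. Srsf5, higher in RNA in EN, had an H3K27ac change of 1.59 (adjusted p = 3.64e-07). Of the 66 regions at the 58 genes whose RNA was called lower, ATAC was called higher at 11 and lower at 9, and H3K27ac higher at 19 and lower at 1. Of the 24 regions at the 22 of these genes whose RNA fell 2-fold or more, ATAC was called higher at 2 and lower at 7, and H3K27ac higher at 2 and lower at 1. Of the 25 regions at the 19 genes whose RNA was not called lower, ATAC was higher at 6 and lower at 1 and H3K27ac higher at 9 and lower at 0. The difference between these classes was not tested.

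**Figure D5:**
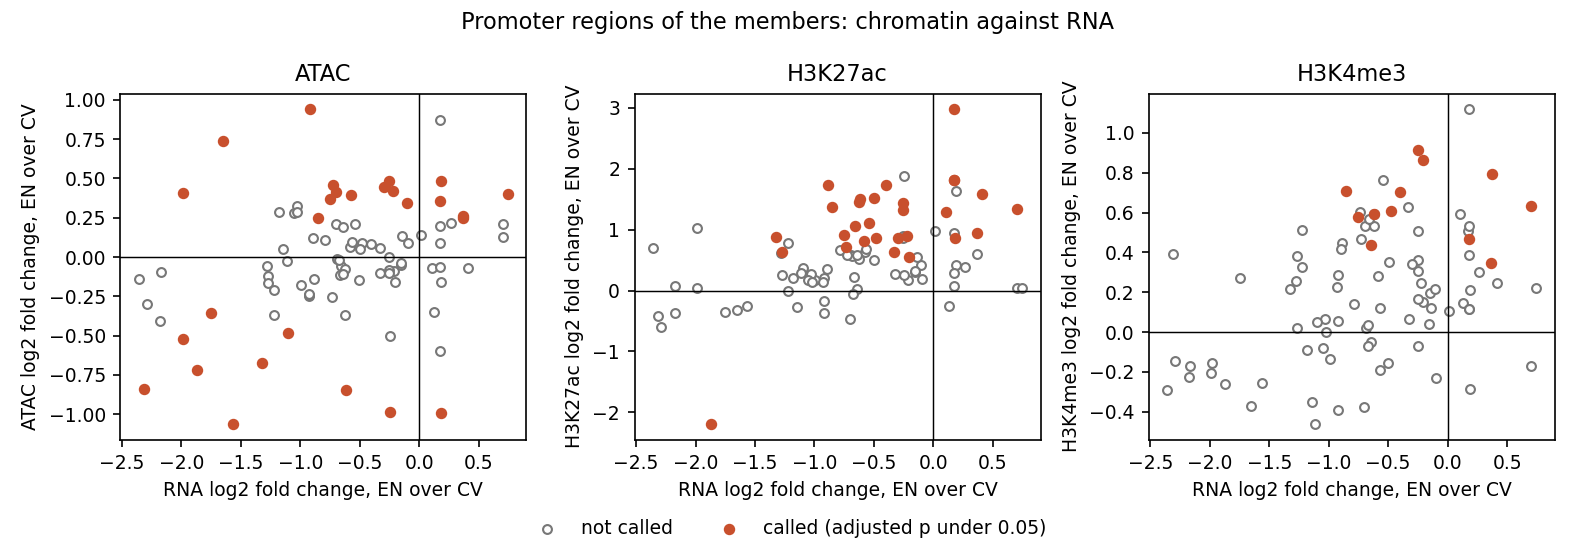
Log2 fold change from CV to EN of ATAC, H3K27ac and H3K4me3 at each of the 91 promoter regions of the members, against the RNA change of the gene's most abundant transcript, with filled points past an adjusted p under 0.05. The H3K27ac panel holds 28 filled points above 0 and 1 below it, Lsm5 at -2.19.

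Promoter sequences of 65 of the 77 genes, as 85 promoters from RefSeq (GRCm38.p6, 250 bases before to 50 after the start), were searched on both strands and set beside all 32851 promoters of the table. The letters CCGGAAG, used here for sites of ETS factors, stood in 30.6% of the member promoters and 8.86% of all. Sites of ETS factors with other letters were not searched. The palindrome bound by NRF1 stood in 23.5% and 4.60%, GGGCGG of Sp/Klf factors in 70.6% and 35.7%, CCAAT of NF-Y in 49.4% and 37.4%, CACGTG, the E-box, in 12.9% and 7.15%, and the motif of YY1 in 1.18% and 0.633%. TATAAA stood in 7.06% and 13.6%, and CAAAGTCCA of HNF4 in 0 of 85 and 0.475%. Member promoters were richer in GC, with a median of 61% and 26 CG pairs against 52.7% and 7, and some genes count with more than 1 promoter. The motifs can overlap one another, and a match is a description of letters.

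Because the rings fell furthest, the promoters of 3 ring genes are shown, with that of Srsf5, which was higher in EN. They are printed 5′ to 3′ on the strand of the gene with their ETS or NRF1 letters, on either strand, in capitals.
Snrpg, chr6:86371290-86371589, plus strand: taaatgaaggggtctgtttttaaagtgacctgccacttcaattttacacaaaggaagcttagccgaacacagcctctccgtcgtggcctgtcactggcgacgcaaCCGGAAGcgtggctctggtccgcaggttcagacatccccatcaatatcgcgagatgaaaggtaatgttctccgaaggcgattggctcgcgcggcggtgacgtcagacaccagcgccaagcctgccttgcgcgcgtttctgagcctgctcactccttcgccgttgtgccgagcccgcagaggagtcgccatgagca
Snrpd2, chr7:19149588-19149887, plus strand: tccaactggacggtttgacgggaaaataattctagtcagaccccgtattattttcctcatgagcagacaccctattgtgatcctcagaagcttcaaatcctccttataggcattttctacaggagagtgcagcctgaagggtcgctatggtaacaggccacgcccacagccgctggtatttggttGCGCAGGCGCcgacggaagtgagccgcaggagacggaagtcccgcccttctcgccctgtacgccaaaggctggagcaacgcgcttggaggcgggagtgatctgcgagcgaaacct
Lsm7, chr10:80855160-80855459, minus strand: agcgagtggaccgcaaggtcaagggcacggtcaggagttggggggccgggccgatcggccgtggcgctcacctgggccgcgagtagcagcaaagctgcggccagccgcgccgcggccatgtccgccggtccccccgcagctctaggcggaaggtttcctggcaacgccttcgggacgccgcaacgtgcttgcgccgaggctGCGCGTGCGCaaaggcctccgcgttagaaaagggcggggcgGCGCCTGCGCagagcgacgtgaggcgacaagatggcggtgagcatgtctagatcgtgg
Srsf5, chr12:80945249-80945548, plus strand: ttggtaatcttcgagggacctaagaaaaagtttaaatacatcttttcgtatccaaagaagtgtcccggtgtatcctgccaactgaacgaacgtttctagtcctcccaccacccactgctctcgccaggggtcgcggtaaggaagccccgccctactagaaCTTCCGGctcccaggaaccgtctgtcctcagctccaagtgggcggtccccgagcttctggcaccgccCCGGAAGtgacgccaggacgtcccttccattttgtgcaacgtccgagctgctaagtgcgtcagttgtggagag
Snrpg and Srsf5 hold ETS letters, 1 match in Snrpg and 2 in Srsf5, and Snrpd2 and Lsm7 hold NRF1 letters, 1 and 2 matches. ETS letters thus stood before Snrpg, which was lower in EN than in CV, and before Srsf5, which was higher.

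Binding of Hnf4g, a nuclear receptor of enterocytes, was measured in 1 library per culture, without replicates. The 91 member regions took 0.275% of the reads in regions in CV (95% exact interval 0.241% to 0.313%), 0.277% in ENR (0.260% to 0.295%) and 0.445% in EN (0.436% to 0.455%), intervals that cover counting error only. All 15650 promoter regions took 35.1%, 37.4% and 54.3%, so the member regions held 0.783%, 0.740% and 0.820% of the reads at promoters. The libraries held 84340, 352600 and 1816497 reads in regions. The median member region had 2 reads in CV, 6 in ENR and 58 in EN, and the median promoter region had 0, 5 and 37. These raw reads follow the size of the library. As CPM of the reads in regions, without TMM scaling, the member medians were 23.7, 17.0 and 31.9 in CV, ENR and EN. Those of all promoter regions were 0, 14.2 and 20.4.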

How the data were processed

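RNA was sequenced from 12 libraries, 4 each of CV, ENR and EN organoids, grouped by the labels. The authors deposited kallisto expected counts, TPM and mRNA copies per cell for RefSeq transcripts with measured proteins. The copies rest on ERCC spike-ins added during ribosomal RNA depletion, per the study, and their formula is not given in the sources used here. For chromatin they deposited normalized scores over a union of peaks in mm9, and for Hnf4g the authors deposited raw read counts. Only the chromatin libraries that the deposited table holds were used, 4 per culture for ATAC and 3 for each mark. Protein features, Hnf4g knockouts and other libraries were not analysed here.

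Expected counts were rounded, and transcripts counted in 4 or more libraries were fitted over all 3 cultures by edgeR 4.0.16 in R 4.3.3, with the quasi-likelihood test, TMM scaling and Benjamini-Hochberg adjustment at 0.01. Copies were tested by limma 3.58.1 on log2(copies + 0.1), and scores by limma on log2(score + 1) at 0.05. DESeq2 1.42.0, spike-in scaling, TPM and other settings were alternatives. Regions were assigned to genes with a start within 500 bp. Library totals ran between 5630950 and 8859740 expected counts. Fits were tested on simulated data.

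Named within each role were the 2 largest falls and rises, the most abundant member and members called higher where most fell, then the 6 largest with ENR extreme. Other splicing genes and regions were named by largest change. Further members and region values were added for their roles after values were seen. The result of 1 member is not reported here. Members and lists were chosen with earlier results of these data known.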

Additional observations from a re-analysis of the deposited data

Results flagged for a closer look

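Among 105 groups of 4 libraries tested over the named members, 6 held a library whose gap to the others passed Dixon's 95% critical value, and chance alone gives about 1 in 20. For Sf3b5, CV library 4 had 89.2 CPM against 74.5 to 76.0 in the other CV libraries. ENR library 4 had 45.4 CPM of Sf3b5 against 46.7 to 47.0, and EN library 1 had 28.1 CPM against 23.8 to 24.4. The 3 cultures stay apart for Sf3b5 with these libraries included. For Prpf40b, EN library 2 had 3.43 CPM against 5.17 to 5.47 in the others. For Srsf7, ENR library 1 had 169.9 CPM against 179 to 180.1. For Hnrnpul2, ENR library 3 had 96.9 CPM against 102.7 to 103.3.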

How the results depend on the processing

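Counts in this section give members called in EN against CV, EN against ENR and CV against ENR, in that order. DESeq2, both filters on low counts, transcripts summed per gene, an adjusted p under 0.05 and the fit with a replicate block kept each of these counts within 1.5 times, with 5 higher and 64 lower, 3 and 72, and 9 and 44 under the block. The limma fit of log2(TPM + 1) gave 2 higher in the first and 25 lower in the third comparison, and log2(TPM + 5) gave 2 higher in the first and 14 higher and 26 lower in the third. Spike-in scaling gave 0, 0 and 3 higher and 20 lower in the third. The deposited copies gave 13, 11 and 4 higher and 11, 13 and 2 lower. A 2-fold limit gave 0, 0 and 1 higher and 22, 35 and 1 lower. Other splicing genes from CV to EN gave 4 higher on TPM with either pseudocount, 3 with spike-ins and with the 2-fold limit, 33 higher and 10 lower on copies, and 23 lower with the 2-fold limit. The median of the members from CV to EN was -0.94 on TPM, -1.06 with spike-ins and 0.13 on copies, and their share of all TPM was 0.907% in CV, 0.936% in ENR and 0.407% in EN.

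Leaving out 1 library at a time gave 4 to 6 higher and 60 to 62 lower from CV to EN, 2 to 3 and 70 to 72 from ENR to EN, 9 to 10 and 37 to 46 from ENR to CV, and 13 to 18 and 65 to 69 for the other splicing genes. Shares of counts ran between 1.07% and 1.08% in CV, 1.24% and 1.25% in ENR and 0.529% and 0.545% in EN.

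The log2 difference of EN from CV took the other sign on copies for Snrpc (0.14), Lsm12 (0.54), Sf3b6 (0.23), U2af2 (0.30), Hnrnpf (0.19), Lsm3 (0.077), Hnrnpc NM_001170982.1 (0.59), Ptbp1 (0.37). The log2 difference of EN from ENR took the other sign on copies for Snrpc (0.44), Lsm12 (1.08), Lsm14a (0.77), Sf3b6 (0.69), Prpf40b (0.23), Prpf39 (0.74), Hnrnpul1 (0.77), Hnrnpf (0.069), Hnrnpc NM_001170982.1 (0.060), Clk1 (0.83), Esrp1 (0.16), Esrp2 (0.72), Srpk1 (0.68). The log2 difference of EN from CV took the other sign on log2(TPM + 1) for Lsm14a (-0.13), Prpf39 (-0.040), Hnrnph1 (-0.21), Esrp1 (-0.27), Esrp2 (-0.26), Srpk1 (-0.29). The log2 difference of EN from CV took the other sign on log2(TPM + 5) for Lsm14a (-0.12), Prpf39 (-0.031), Hnrnph1 (-0.20), Esrp1 (-0.24), Esrp2 (-0.21), Srpk1 (-0.27). The log2 difference of EN from CV took the other sign with spike-in scaling for Lsm14a (-0.23), Prpf39 (-0.15), Srsf5 (-0.000339), Hnrnpul1 (-0.049). The log2 difference of EN from ENR took the other sign with spike-in scaling for Hnrnpul2 (-0.26), Syf2 (-0.14). The cause of these changes was not tested.

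At the promoters, an adjusted p under 0.01 gave 10 regions higher and 6 lower in ATAC and 1 higher in H3K4me3. Of all promoter regions, it gave 2022 higher and 1558 lower of 15632 in ATAC and 136 higher of 15468 in H3K4me3. A limma fit without a trend gave 4 higher in ATAC, 1 higher and 0 lower in H3K27ac and 2 higher in H3K4me3. Quantile normalization gave 3 higher and 21 lower in ATAC, 11 higher and 5 lower in H3K27ac, and 2 higher and 2 lower in H3K4me3. Leaving out regions at the starts of several genes, an alternative chosen after seeing the data, gave 6 higher in H3K4me3. The replicate block gave 18 higher and 11 lower in ATAC, 0 higher and 0 lower in H3K27ac and 1 higher in H3K4me3. Of all promoter regions in ATAC it called 3161 higher and 2575 lower of 15632. It called 0 of 15640 in H3K27ac and 79 higher of 15468 in H3K4me3. The block thus left no H3K27ac call at any promoter region, of a member or not. Same-numbered libraries had a mean correlation of their deviations of 0.0133 for RNA, 0.170 for ATAC, -0.00276 for H3K27ac, 0.0501 for H3K4me3 and -0.00781 for H3K27me3. In ATAC the 12 same-numbered pairs ran from 0.0695 to 0.460, against a mean of -0.0557 for other numbers. Since not every pair exceeded 0.1 in any assay, the numbers were not taken to pair the libraries. Among 135 named RNA differences the block moved 1 past the threshold and 1 below it. Leaving out 1 library gave 12 to 16 higher and 8 to 11 lower in ATAC. For H3K27ac it gave 18 to 30 and 0 to 1 (0 without EN replicate 2), and for H3K4me3 4 to 17 and 0. Of all promoter regions, it gave 2577 to 2968 higher and 2005 to 2468 lower of 15632 in ATAC. For H3K27ac these were 1443 to 2422 and 283 to 502 of 15640, and for H3K4me3 291 to 1200 and 450 to 1240 of 15468. For H3K27me3 no member region was called. Its count at an unadjusted p under 0.05 was 2 with all libraries and 0 to 8 with 1 left out.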
